A study of Mus musculus with 6 samples.

Results

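The messages described here encode the proteins of the small subunit of the cytosolic ribosome. They were chosen by name from the table of counts per gene, as the rows whose symbol is Rps followed by a number and at most a letter and a digit, together with Rpsa and Fau. This gave 37 of 55376 rows. RefSeq lists 33 of them as protein-coding genes and 4 (Rps4l, Rps3a2, Rps3a3 and Rps12l1) as pseudogenes, although the rule left out rows with a pseudogene suffix. The values come from muscle stem cells sorted from C57BL/6 mice aged 3 months, and no group carried a transgene or treatment in the labels. The cells were isolated by fluorescence-activated sorting and the libraries made by SMART-seq2. In RNA immunoprecipitation (RIP) an antibody pulls down a protein, and the RNA that comes with it is sequenced. The 3 groups of 2 libraries were RIP with an antibody to CPEB4, RIP with IgG, and input, total RNA of such cells without a pulldown. The series' text calls the CPEB4 RIP libraries biological replicates, but no label says which animals, pools or preparations stand behind any library. The p-values therefore cover the spread between these libraries and no more, and part of it may be technical.

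The small ribosomal subunit binds the message, carries the decoding site where codons meet transfer RNAs, and scans for the start codon. Most of its proteins are encoded by single genes, and their messages begin with a 5′ terminal oligopyrimidine (TOP) tract, a C followed by further C and T bases, through which growth signals by way of mTOR control their translation together. In muscle stem cells, which leave quiescence by raising protein synthesis, ribosome supply is part of activation. CPEB4 belongs to a family of RNA-binding proteins that recognise the cytoplasmic polyadenylation element and act on the poly(A) tail and the translation of a message.

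The starts of 8 messages from the upper and the lower end of the order of folds over IgG, widest first, are shown because the members differ there in the tract that defines the class. Each sequence runs from 10 bases before to 20 bases from a transcript start in the RefSeq promoter table on GRCm38 (mm10), on the gene's own strand. For a gene with several such starts, the one with the longest run is shown. The start lies at the end of RefSeq's gene span for 6 of the 8, but 174 bases inside it for Rps12 and 1942 bases inside it for Rps2, so in these 2 the window is not at the outermost start of the gene. Capitals mark the longest run of C and T that begins with C. Rps27l, at rank 5 of the order and so above Rps4x, also has an entry but is not shown. Its longest run is 7 bases.
Rps12, chr10:23787190-23787219, minus strand: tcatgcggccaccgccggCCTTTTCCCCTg
Rps2, chr17:24720053-24720082, plus strand: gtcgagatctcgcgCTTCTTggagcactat
Rps21, chr2:180257369-180257398, plus strand: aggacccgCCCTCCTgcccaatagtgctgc
Rps4x, chrX:102189372-102189401, minus strand: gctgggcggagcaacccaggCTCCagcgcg
Rps25, chr9:44407704-44407733, plus strand: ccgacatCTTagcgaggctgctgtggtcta
Rps3, chr7:99483690-99483719, minus strand: aagggtcgCCgcgctgcgcggcgtcattgc
Fau, chr19:6057937-6057966, plus strand: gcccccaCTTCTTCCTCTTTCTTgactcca
Rps6, chr4:86857348-86857377, minus strand: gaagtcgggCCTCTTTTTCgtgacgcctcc
Of the 25 members with an entry in the RefSeq promoter table, 10 held such a run of at least 8 bases in this window, on the sense strand, a share of 40%, against 11.2% of the 11676 tested genes with an entry. Of 40 large-subunit genes with an entry, 16 held such a run, also 40%. Among the members the longest runs belonged to Fau, with 16 bases, and Rps10, with 13. The 10 members with a run of at least 8 bases had a median log2 fold against IgG of 1.08 (range 0.35 to 2.52), and the 15 with a shorter one had 1.29 (range 0.66 to 1.92). The ranges of these sets overlapped, and Fau and Rps6, which have runs of 16 and 10 bases at the outermost start of the gene, had the narrowest folds. Which start was used in these cells was not measured, so the lack of a run says only that it is not in these 30 bases.

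Assigned counts were 12679621 and 20843042 after CPEB4 RIP, 9018323 and 14225502 after IgG RIP, and 16314360 and 12426827 in input. The IgG RIP libraries stood apart from each other, with a Pearson r of log CPM (counts per 1000000) across 18054 genes of 0.873, against 0.981 between the CPEB4 RIP libraries and 0.975 between the input libraries. Results over IgG are therefore also given without each IgG library. The stem cell identity was visible in every library: the 10 markers of muscle stem cells summed to 62727 and 68602 CPM after CPEB4 RIP, 60985 to 62343 after IgG RIP and 46445 to 47855 in input. None of the 10 was at 0 in any library. Single stem cell markers went both ways. Over IgG 5 of the 10 had a fitted log2 fold above 0 (median 0.05), and over input 7 did (median 0.58). Counts of the mitochondrial genome made up 4.67% ± 0.246 of the total after CPEB4 RIP, 1.13% ± 0.212 after IgG RIP and 1.41% ± 0.189 in input (mean ± SD, n = 2). The summed CPM of markers of other cells was also higher after CPEB4 RIP, but single markers did not all follow. Of 7 tested leukocyte markers 3 had a fitted log2 fold above 0 over IgG (median -0.07). This held for 5 of 5 erythroid, 6 of 6 fibro-adipogenic, 6 of 8 myofibre and 4 of 5 endothelial markers tested. Cd3e and Adgre1 of the leukocyte list were at 0 in at least 1 library. The 6 erythroid markers summed to 328 to 658 CPM after CPEB4 RIP, 88.0 to 147 after IgG RIP and 109 to 179 in input. The 6 fibro-adipogenic markers summed to 1534 to 2006, 954 to 1348 and 644 to 839 CPM in the same groups, the 8 myofibre markers to 201 to 259, 117 to 149 and 124 to 186, the 5 endothelial markers to 296 to 408, 191 to 252 and 221 to 250, and the 8 leukocyte markers to 60.7 to 83.5, 39.98 to 51.7 and 33.8 to 40.4. The part of these cells, and of the mitochondrial share, in the results below was not tested. Leaving mitochondrial genome genes out of the fit gave a median log2 fold of the members over IgG of 1.17. In that fit 31 members were higher, as were 6.18% of all genes. In such bulk RNA, fewer cells of a type and less RNA per cell cannot be told apart.

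Messages of small-subunit proteins took a larger share of the RNA after CPEB4 RIP than in either background. Together the 37 rows held 2.38% and 2.41% of the counts in the CPEB4 RIP libraries, 1.21% and 1.19% in the IgG RIP libraries, and 1.03% and 0.970% in the input libraries. The CPEB4 RIP share was 1.99 times that of IgG RIP and 2.39 times that of input, and the libraries of a group lay close together, as the plot of shares shows. The 95% Wilson intervals of these shares, which cover counting error only, were at most 0.0168 percentage points wide. Reads carry no molecular identifiers, so counts are not independent molecules. With 2 libraries a side the smallest p that exact permutation allows is 0.333, so the shares were not tested.

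**Figure D1:**
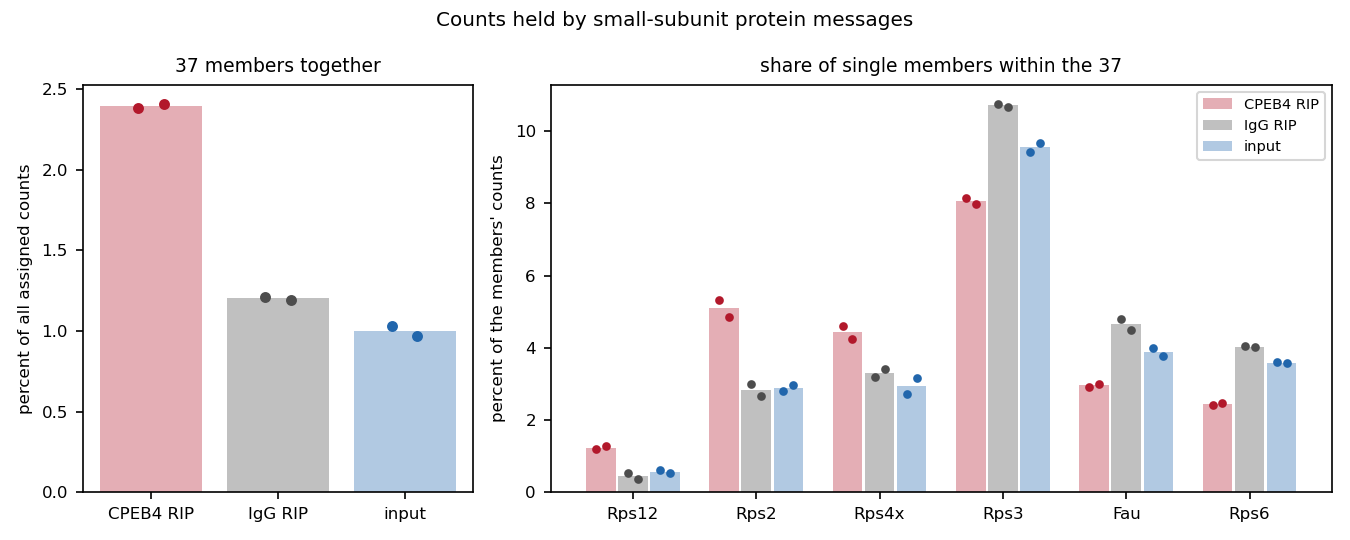
Left, the percent of all assigned counts held by the 37 members in each library (points) with the group mean (bars), which was 2.39% after CPEB4 RIP, 1.20% after IgG RIP and 0.999% in input. Right, the percent of the members' own counts held by single members, with Rps12, Rps2 and Rps4x taking a larger part after CPEB4 RIP than after IgG RIP and Rps3, Fau and Rps6 a smaller one.

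Set against IgG, nearly all coding members passed the test, all of them upwards. Of the 37 rows, 36 had enough counts to be tested, and 30 were higher after CPEB4 RIP, 0 lower, and 6 did not pass the threshold of 0.05 on the Benjamini-Hochberg adjusted p of the quasi-likelihood test of edgeR. Of all 18054 genes tested 4.79% were higher and 3.42% lower. At an unadjusted p under 0.05 in edgeR's test there were 33 members higher and 0 lower, where 2492 of all 18054 genes were higher. DESeq2's Wald test called 31 members higher and 0 lower, where it called 8.37% of all genes higher and 7.43% lower. All 30 were among the 33 coding members. The median log2 fold of the 36 was 1.09, about a doubling, and that of all genes tested was -0.07. Both CPEB4 RIP libraries were above both IgG RIP libraries for 35 of the 36, against 29.4% of all genes, and the exception was the pseudogene Rps4l. For the 33 coding members this already fixes every pairing of a CPEB4 RIP library with an IgG RIP library above 0. Over the 4 pairings the median log2 differences were 1.003 to 1.25. Without IgG RIP replicate 1 the count was 32 of 36 (median 1.18) and without replicate 2 it was 35 (median 1.35), in fits where 23.6% and 18.5% of all genes were higher. Without CPEB4 RIP replicate 2, which leaves 1 CPEB4 RIP library, the median was 1.05. In that fit the calls over IgG were lost for members and other genes alike.

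**Figure D2:**
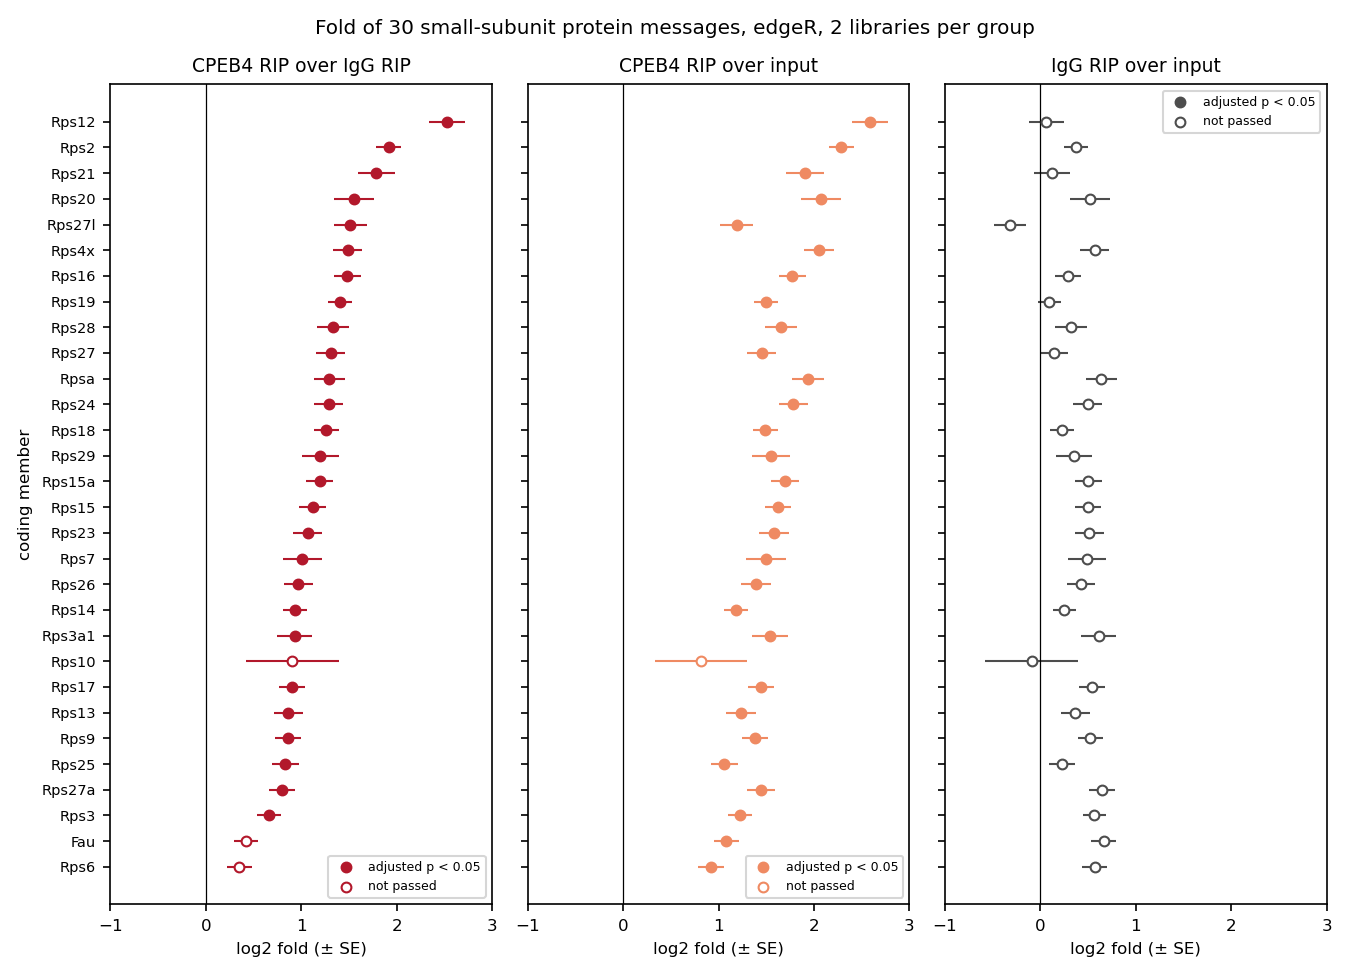
Log2 fold of 30 of the 33 coding members in the 3 comparisons (points, with SE as bars), ordered by the fold of CPEB4 RIP over IgG RIP. Filled points passed an adjusted p of 0.05, which 27 of those drawn did over IgG RIP, 29 did over input, and 0 did for IgG RIP over input.

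The widest fold was that of Rps12 (chromosome 10, 23785183 to 23787383), a protein of the beak of the subunit's head. It stood at 299 and 339 CPM after CPEB4 RIP, 62.5 and 48.6 after IgG RIP, and 56.1 and 50.05 in input. The CPEB4 RIP libraries were far above the other 4, which overlapped one another. Its log2 fold was 2.52 over IgG (SE 0.19, adjusted p = 0.00369) and 2.59 over input (SE 0.19, adjusted p = 0.00184) by the quasi-likelihood test of edgeR. Rps2 (chromosome 17, 24718121 to 24721927), which lines the channel through which the message enters, had 1330 and 1282 CPM after CPEB4 RIP, 351 and 340 after IgG RIP, and 257 and 278 in input. Here the 3 groups were separate, with IgG RIP between CPEB4 RIP and input. The log2 fold of Rps2 was 1.92 over IgG (SE 0.13, adjusted p = 0.00316) and 2.29 over input (SE 0.13, adjusted p = 0.00184).

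Rps21, a small protein of the body, followed with 126 and 157 CPM after CPEB4 RIP, 37.1 and 44.8 after IgG RIP, and 39.97 and 35.4 in input. It rose by a log2 fold of 1.79 over IgG (SE 0.20) and 1.91 over input (SE 0.20), while IgG RIP and input overlapped. Rps20, which sits in the head, had 236 and 258 CPM after CPEB4 RIP, 67.5 and 101 after IgG RIP, and 58.0 and 59.6 in input, a log2 fold of 1.55 over IgG (SE 0.21, adjusted p = 0.0104). Rps4x, the X-linked gene of protein S4 (chromosome X, 102184941 to 102189391), had 1152 and 1118 CPM after CPEB4 RIP, 373 and 437 after IgG RIP, and 249 and 297 in input. All 3 groups of Rps4x were separate, and the log2 fold was 1.49 over IgG (SE 0.15, adjusted p = 0.00719).

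Among the proteins of the head, Rps19 is the gene most often mutated in Diamond-Blackfan anemia, an inherited failure of red cell production. It had 1515 and 1476 CPM after CPEB4 RIP, 567 and 560 after IgG RIP, and 522 and 535 in input, with a log2 fold against IgG of 1.41 (SE of 0.12 and adjusted p = 0.00562). Rps16, whose tail reaches the decoding site, had 662 and 737 CPM after CPEB4 RIP, 243 and 258 after IgG RIP, and 211 and 199 in input (log2 fold over IgG 1.48, SE 0.14). In both genes CPEB4 RIP stood clear of the other groups, and the step from input to IgG RIP was small. Rps18 had 1168 and 1183 CPM after CPEB4 RIP, 517 and 465 after IgG RIP, and 417 and 421 in input. Its 3 groups were separate, and its log2 fold against IgG was 1.26 (SE 0.13, adjusted p = 0.00719).

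By place in the subunit, 13 of 14 proteins of the head were higher over IgG (median log2 fold 1.23, range 0.66 to 2.52) and 16 of 18 of the body and platform (median 1.03, range 0.35 to 1.92), with 0 lower in either. Of 11 genes mutated in Diamond-Blackfan anemia 10 were higher, with a median of 1.20 and a range of 0.90 to 1.55. In RefSeq 10 of the coding members have genes of small nucleolar RNAs inside them, namely hosts such as Rps12, Rps2 and Rpsa. All 10 hosts were higher (median 1.17), as were 20 of the 23 others (median 1.12). The ranges of these groupings overlapped, and the differences between them were not tested.

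**Figure D3:**
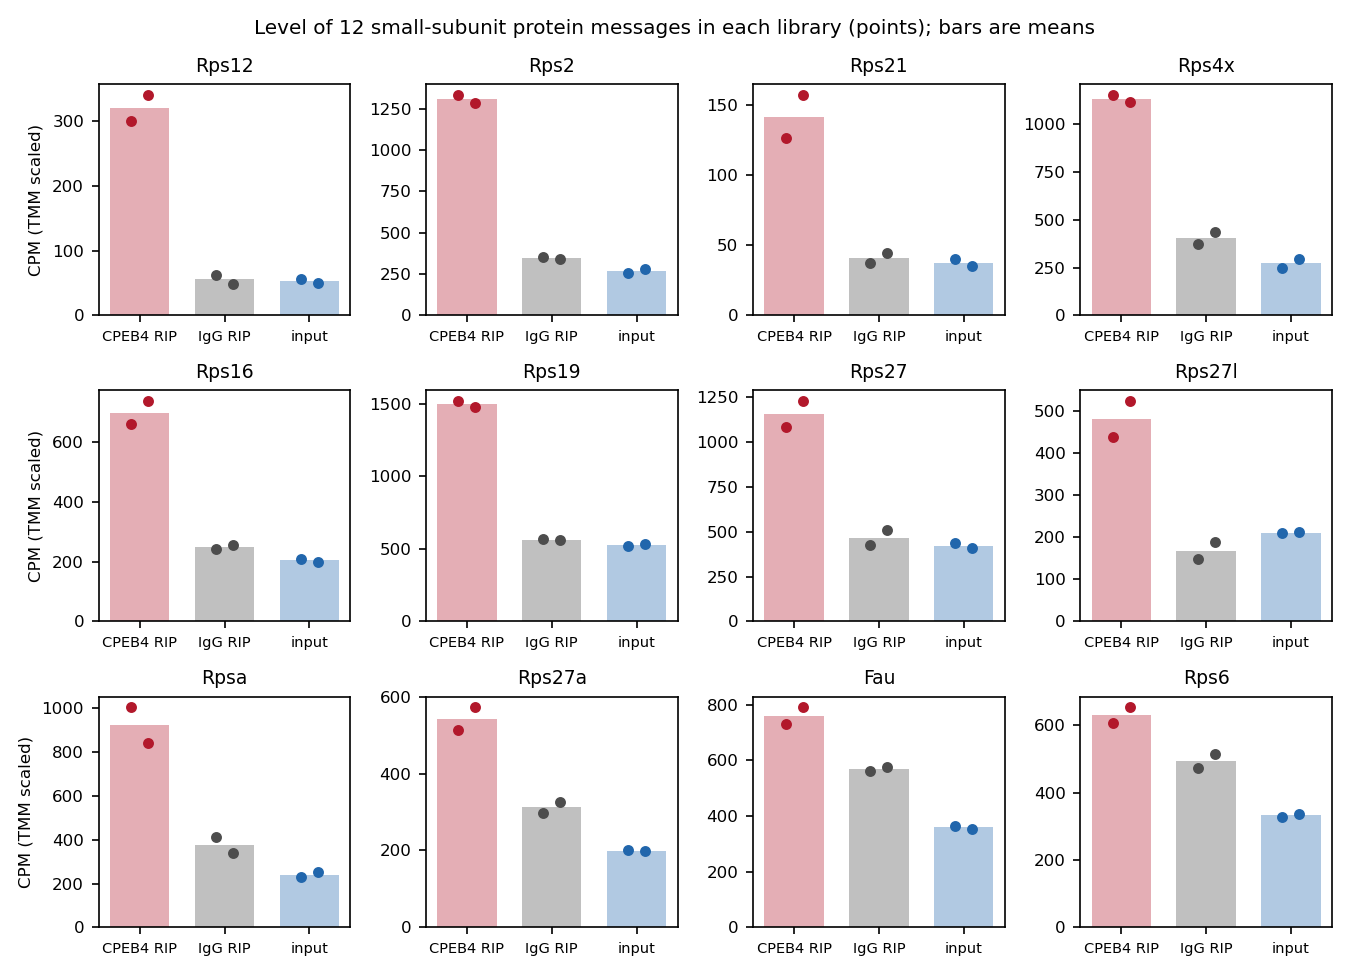
CPM with TMM scaling of single members in each library (points) and the group mean (bars). Rps12 stood at 299 and 339 CPM after CPEB4 RIP against 62.5 and 48.6 after IgG RIP, while Rps6 stood at 606 and 653 CPM after CPEB4 RIP against 473 and 514 after IgG RIP.

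At the lower end, Rps6 is the protein phosphorylated by the S6 kinases downstream of mTOR. It had 606 and 653 CPM after CPEB4 RIP, 473 and 514 after IgG RIP, and 329 and 337 in input. The groups did not overlap, but the log2 fold against IgG of 0.35 (SE of 0.13 and adjusted p = 0.142 in edgeR's test) did not pass, whereas that over input of 0.92 (SE 0.13, adjusted p = 0.00643) did. Without IgG RIP replicate 2 the fold over IgG was 0.55 with an adjusted p of 0.0266. Fau (chromosome 19, 6057947 to 6059524) encodes protein S30 fused to a ubiquitin-like protein, which is cut off. Fau had 731 and 790 CPM after CPEB4 RIP, 561 and 577 after IgG RIP, and 365 and 354 in input. Its log2 fold over IgG was 0.42 (SE 0.13, adjusted p = 0.0857) and passed without either IgG RIP library (0.58 in both fits, adjusted p 0.0171 without replicate 1 and 0.0200 without replicate 2); over input it was 1.08 (SE 0.13, adjusted p = 0.00364).

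Rps27a, the other member made as a fusion, carries ubiquitin itself at its front. It had 512 and 572 CPM after CPEB4 RIP, 297 and 326 after IgG RIP, and 200 and 198 in input, and rose by 0.80 over IgG (SE 0.14, adjusted p = 0.0193) on the log2 scale. Rps3, which lines the entry of the message channel and also acts in DNA repair, had 2035 and 2101 CPM after CPEB4 RIP, 1254 and 1365 after IgG RIP, and 859 and 910 in input. Its log2 fold over IgG was 0.66 (SE 0.12, adjusted p = 0.0229). Rps6, Fau, Rps3 and Rps27a had the 4 narrowest folds over IgG among the coding members, and in each of them IgG RIP stood above input without overlap.

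The unequal folds show as a shift in the makeup of the class, which does not depend on how libraries are scaled. Of the members' counts, Rps12 held 1.24% ± 0.0627 after CPEB4 RIP, 0.458% ± 0.110 after IgG RIP and 0.573% ± 0.0585 in input (mean ± SD of 2 libraries). Rps2 held 5.09% ± 0.321 after CPEB4 RIP, 2.83% ± 0.252 after IgG RIP and 2.88% ± 0.104 in input. Rps6 held 2.45% ± 0.0365, 4.04% ± 0.0283 and 3.59% ± 0.0189 in the same groups, and Fau 2.96% ± 0.0516, 4.66% ± 0.215 and 3.88% ± 0.160. Rps12 and Rps2 thus took a larger part of the class after CPEB4 RIP, and Rps6 and Fau a smaller one. Against IgG RIP both CPEB4 RIP libraries were above both for 15 of the 33 coding members, below both for 10, and overlapped for 8. Against input the counts were 13, 11 and 9. Between the 2 backgrounds alone, IgG RIP against input, they were 11, 10 and 12, so such separation was not particular to CPEB4 RIP. Across the 33 coding members the log2 fold over IgG had a Spearman rho of -0.07 with the length of the gene model and -0.28 with the mean FPKM in input, a level per length. These rhos describe the 33 members only, and input enters neither side of that fold.

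Paralogs have rows of their own in the table. Rps27 and Rps27l encode closely similar zinc-finger proteins, and RPS27L is a target of p53 in human cells. Rps27 had 1083 and 1224 CPM after CPEB4 RIP, 426 and 507 after IgG RIP, and 436 and 407 in input. Rps27l had 438 and 523 CPM after CPEB4 RIP, 149 and 188 after IgG RIP, and 209 and 212 in input. Both rose over IgG, by 1.31 (SE 0.15) and 1.51 (SE 0.17) on the log2 scale, and over input, by 1.45 (SE 0.15) and 1.19 (SE 0.17). In Rps27l the IgG RIP libraries lay below both input libraries, a log2 fold of -0.32 (SE 0.17) that did not pass (adjusted p = 0.445 in edgeR's test). Rps27l and Rps10 were the only 2 coding members with a fitted log2 fold below 0 for IgG RIP over input. Rpsa, which is also a receptor for laminin at the cell surface, had 1002 and 838 CPM after CPEB4 RIP, 412 and 338 after IgG RIP, and 231 and 251 in input (log2 fold over IgG 1.29, SE 0.16, adjusted p = 0.00895).

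Rps3a1, the gene of protein S3a, had 833 and 938 CPM after CPEB4 RIP, 395 and 536 after IgG RIP, and 281 and 328 in input, a log2 fold against IgG of 0.93 (SE of 0.18 and adjusted p = 0.0265). Its pseudogenes were low. Rps3a3, inside the Pde4d gene, had 17.7 and 24.7 CPM after CPEB4 RIP, 8.32 and 14.7 after IgG RIP, and 8.86 and 4.68 in input, and Rps3a2 had 8.78 and 10.4 CPM after CPEB4 RIP, 1.60 and 5.14 after IgG RIP, and 1.52 and 2.34 in input. Neither passed over IgG (0.88 with adjusted p = 0.228 and 1.49 with adjusted p = 0.161), and both passed over input (1.64 with adjusted p = 0.0460 and 2.31 with adjusted p = 0.0485). Without IgG RIP replicate 2 both passed over IgG, at 1.497 for Rps3a3 and 2.72 for Rps3a2, and without replicate 1 Rps3a2 passed at 1.08. Rps4l had 3.48 and 3.73 CPM after CPEB4 RIP, 5.76 and 2.49 after IgG RIP, and 2.28 and 2.65 in input, with a log2 fold against IgG of -0.19 (SE of 0.56, adjusted p = 0.861) that turned to 0.72 without IgG RIP replicate 1. Rps12l1 had 0 counts in all 6 libraries and was not tested.

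Rps10, a protein of the head near the mouth of the message channel, stood far below the other coding members per length. Its row held 63 and 91 counts after CPEB4 RIP, 20 and 42 after IgG RIP, and 54 and 35 in input, or 5.22 and 4.78, 2.13 and 3.17, and 2.94 and 2.73 CPM. The 4 rows named as Rps10 pseudogenes summed to a mean of 34.0 CPM after CPEB4 RIP, 15.8 after IgG RIP and 6.5 in input, above the gene itself in each group. Its log2 fold over IgG was 0.91 (SE 0.49, adjusted p = 0.277) and over input 0.82 (SE 0.48, adjusted p = 0.315). The sources used here do not say how reads that match several places were counted, so the split of reads between a gene and its near-identical copies is uncertain, for this row most of all.

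The count table has 116 rows named as pseudogenes of these members, and together they held 0.0871% ± 0.00722 of the counts after CPEB4 RIP, 0.0325% ± 0.0115 after IgG RIP and 0.0230% ± 0.00128 in input (mean ± SD, n = 2). Of the 63 with enough counts to be tested, 6 were higher over IgG and 57 did not pass, where 4.79% of all genes were higher. Over input 26 were higher and 37 did not pass, where 8.0% of all genes were higher. The rows named for Fau ran the other way against input, with sums of 2.32 and 1.42 CPM after CPEB4 RIP and 6.69 and 5.70 in input. After IgG RIP they summed to 10.6 and 0.529 CPM, on either side of both CPEB4 RIP libraries. Adding the pseudogene counts to the genes' own left 30 of 36 members higher over IgG, with a median log2 fold of 1.10.

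Over input the folds were wider than over IgG for most members. Of 36 tested, 34 were higher after CPEB4 RIP and 0 lower, where 8.0% of all genes were higher. At an unadjusted p under 0.05 in edgeR's test there were also 34 higher and 0 lower, where 2846 of all 18054 genes were higher. DESeq2's Wald test called 34 members higher and 0 lower, where it called 10.9% of all genes higher and 8.14% lower. Without CPEB4 RIP replicate 2 the count was 17, in a fit where 0.439% of all genes were higher. The median log2 fold was 1.52, against -0.06 over all genes, and both CPEB4 RIP libraries were above both input libraries for 36 of 36 members, against 34.4% of all genes. The 2 that did not pass were Rps10 and Rps4l (0.55, SE 0.56, adjusted p = 0.567). After Rps12 and Rps2, the widest folds of coding members were those of Rps20 (2.07, SE 0.21), Rps4x (2.06, SE 0.16) and Rpsa (1.93, SE 0.17). The 2 comparisons share the CPEB4 RIP libraries.

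IgG RIP itself lay somewhat above input for most members. Both IgG RIP libraries were above both input libraries for 28 of 36, where this held for 21.4% of all genes, and the median log2 fold was 0.49 against 0.05 over all genes. In edgeR's test 0 members passed an adjusted p of 0.05, as did 0.0% of all genes, and at an unadjusted p under 0.05 there were 19 members and 7.6% of all genes higher. DESeq2's Wald test called 14 members higher, where it called 2.37% of all genes higher. Rps3 had a log2 fold of 0.57 (SE 0.12, adjusted p = 0.199 in edgeR's test), Fau one of 0.66 (SE 0.13, adjusted p = 0.199) and Rps12 one of 0.06 (SE 0.18, adjusted p = 0.931). Without IgG RIP replicate 1, 13 members passed, and without replicate 2, 1 did, where 2301 of 20834 and 607 of 21118 genes were higher.

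Levels of different members can be compared only per length, in the authors' FPKM (fragment counts divided by the length of the gene model and by a total for the library). Across the 33 coding members the median FPKM was 286 after CPEB4 RIP, 130 after IgG RIP and 104 in input. Rps27 was highest after CPEB4 RIP, at 758 and 834 FPKM, with 269 and 337 after IgG RIP and 303 and 277 in input. Fau was highest after IgG RIP, at 385 and 417 FPKM, with 556 and 584 after CPEB4 RIP and 275 and 262 in input. In input the libraries of Rps27 and Fau, first and second in the order, lay side by side without overlap, and those of Rps14 (236 and 229 FPKM) lay below both. The lowest coding members after Rps10 were Rps20, Rps15a and Rps24, at 10.3 and 10.4, 11.8 and 11.01, and 17.0 and 15.7 FPKM in input. Their gene models are 4080, 6270 and 6256 bases long, where the median of the 33 is 1734. FPKM divides by this length, whichever transcripts were present.

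**Figure D4:**
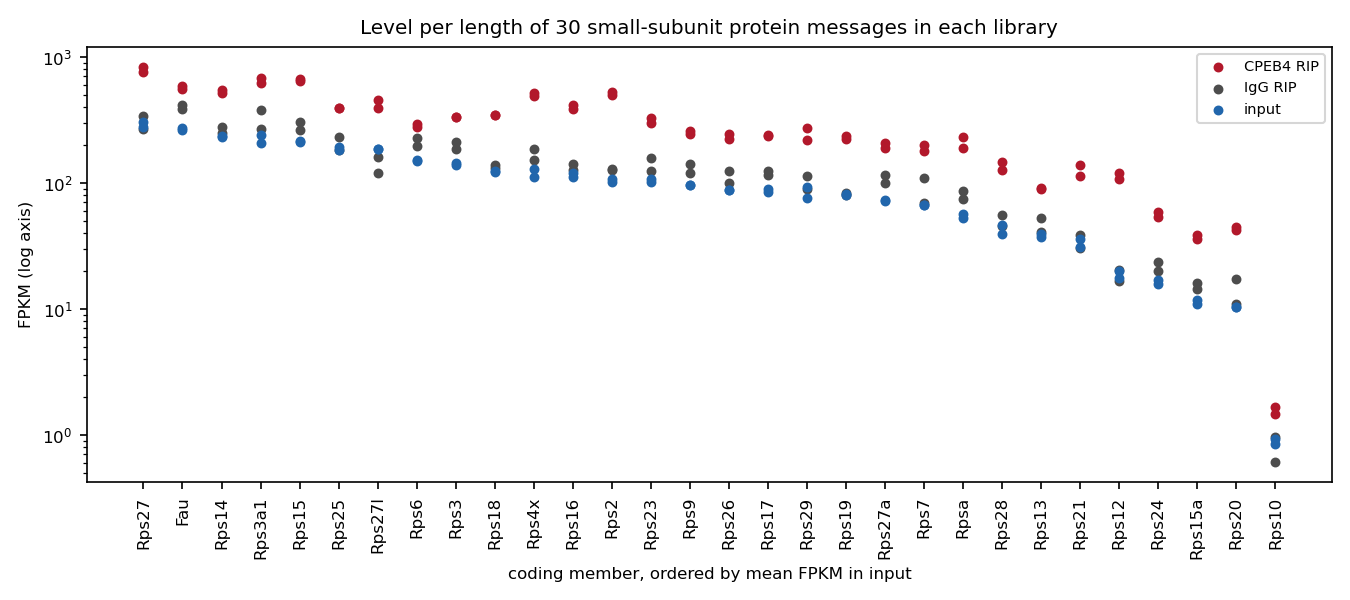
FPKM on a log axis of 30 of the 33 coding members in each library, ordered by their mean in input. In each member the CPEB4 RIP points lie above both backgrounds, Rps27 is the highest in input at 303 and 277 FPKM, and Rps10 is far below the rest at 0.920 and 0.840.

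The gene models of the class are short, with a median of 1734 bases against 3841 over all genes tested. With an offset for gene length in each library, the median log2 fold over IgG was 0.80 against -0.10 over all genes. In that fit 0 members and 0 of 18054 genes were called in edgeR's test. At an unadjusted p under 0.05 in the same test 28 members were higher, and 3780 of the 18054 genes passed in either direction. Over input the median was 1.47 with 24 members called, where 2.85% of all genes were higher.

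Other messages of the pathway did not all move this way, as the plot by gene list shows. Of 51 tested proteins of the large subunit, 40 were higher over IgG and 0 lower, with a median log2 fold of 0.97. Of 19 other messages known for a TOP tract, 6 were higher and 0 lower, with a median of 0.44. They were Tpt1, the growth-related protein TCTP (2.16, SE 0.15, adjusted p = 0.00316), Rack1, which sits on the head of the small subunit as a signalling scaffold (1.02, SE 0.13), the initiation factor subunits Eif3f (1.15) and Eif3h (0.78), and the elongation factor subunits Eef1b2 (0.76) and Eef1a1 (0.67). Rack1, which is part of the small subunit without bearing its name, had 1466 and 1437 CPM after CPEB4 RIP, 703 and 727 after IgG RIP, and 572 and 655 in input. The poly(A)-binding protein message Pabpc1 had 597 and 589 CPM after CPEB4 RIP, 426 and 398 after IgG RIP, and 307 and 360 in input, and its log2 fold against IgG of 0.52 (SE of 0.14) did not pass (adjusted p = 0.0638).

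Factors listed for assembly of the small subunit in the nucleolus and cytoplasm stood on the other side. The list also holds Wdr12, a factor of large-subunit assembly. Wdr12 did not pass in edgeR's test over IgG (adjusted p = 0.230) or over input (adjusted p = 0.258). Of 50 tested, 0 were higher and 9 lower over IgG in edgeR's test, where 4.79% of all genes were higher and 3.42% lower. At an unadjusted p under 0.05 in that test 1 was higher, as were 2492 of all 18054 genes. Over input 3 were higher and 16 lower, where 8.0% of all genes were higher and 4.7% lower. The median log2 fold was -0.47 in both comparisons. Nob1, the nuclease that cuts the end of the small ribosomal RNA, had 67.3 and 81.3 CPM after CPEB4 RIP, 167 and 162 after IgG RIP, and 144 and 139 in input. Its log2 fold over IgG was -1.15 (SE 0.16, adjusted p = 0.0111). The late assembly factor Ltv1 (-0.99) and the assembly factor Tsr1 (-1.17) fell as well, as did the box C/D core protein Nop56 (-0.82) and the processome protein Wdr43 (-0.95). The kinase Riok3, at 133 and 137 CPM after CPEB4 RIP, 128 and 141 after IgG RIP, and 163 and 185 in input, had a fold over IgG of 0.00.

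For the regulators of TOP messages and the S6 kinases the counts over IgG were small, and 4.79% of all genes were higher and 3.42% lower in that comparison. Of 10 regulators 1 was higher over IgG, the repressor of cap-dependent initiation Eif4ebp1 (0.75, SE 0.16, adjusted p = 0.0366), and 1 was lower, the nucleic acid-binding protein Cnbp (-0.78, SE 0.16, adjusted p = 0.0268). Over input 4 of the 10 regulators were higher and 0 lower, where 8.0% of all genes were higher and 4.7% lower. Larp1, which binds the TOP tract and the cap, had 48.0 and 50.8 CPM after CPEB4 RIP, 33.4 and 77.0 after IgG RIP, and 50.1 and 61.8 in input, with a log2 fold against IgG of -0.16 (SE of 0.35, adjusted p = 0.797). The groups of Larp1 overlapped. Of 10 genes of the S6 kinase families, 1 passed over IgG and over input, the p90 kinase Rps6ka3 (0.91, SE 0.17, adjusted p = 0.0225), while Rps6kb1, the main kinase of Rps6, stood at -0.12 (SE 0.19, adjusted p = 0.707). The lists were described by counts and medians, and the differences between them were not tested.

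**Figure D5:**
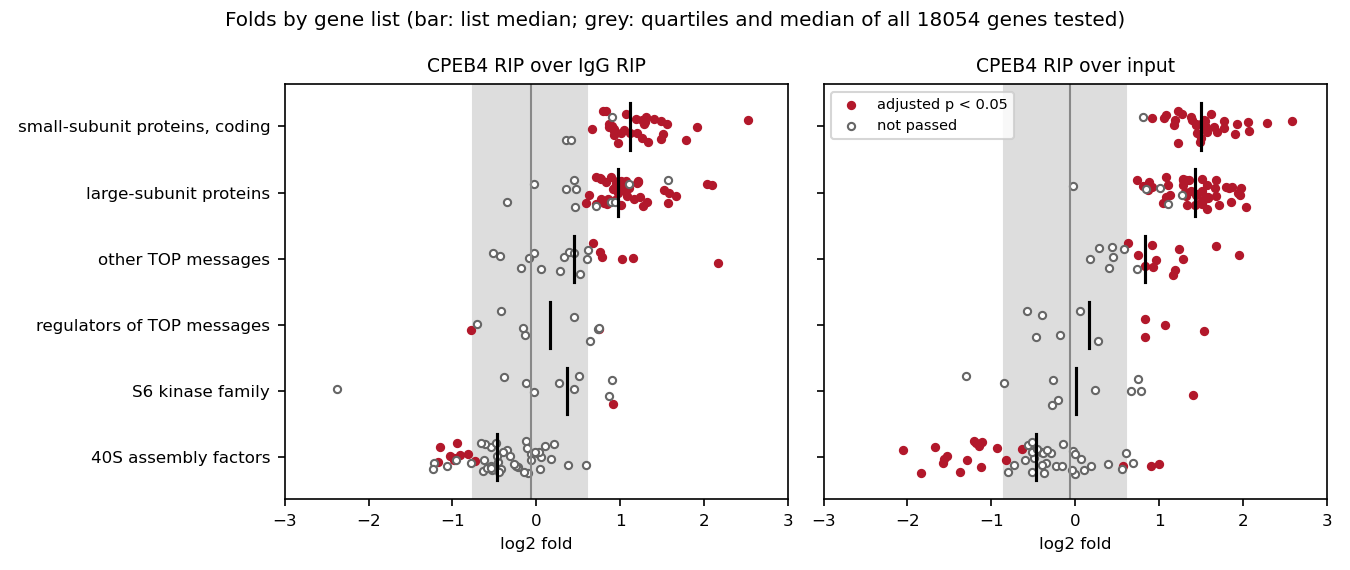
Log2 folds over IgG RIP and over input by gene list (points; filled, adjusted p under 0.05; black bars, list medians), with the quartiles and median of all 18054 genes tested in grey. The small- and large-subunit proteins centre to the right of the grey band, at medians of 1.12 and 0.97 over IgG, and the assembly factors centre on -0.47.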

How the data were processed

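Per the labels, libraries were made by SMART-seq2 and sequenced as 6 libraries, 2 per group. Per the submitters' processing notes, HISAT2, featureCounts and mm10 were used. No source used here gives their versions, the annotation, whether strand was used or what was done with reads of several matches. The authors deposited raw counts per gene, with no normalization, and a table of FPKM values, whose tool and library total no source used here names. Dividing counts by FPKM, and scaling to RefSeq's lengths of 2 genes of the mitochondrial genome, gave gene model lengths, all within 0.01 of a whole base. The count model was edgeR 4.0.16 in R 4.3.3: filterByExpr (minimum count 10, minimum total 15; 18054 genes kept), TMM (trimmed mean of M-values), and a quasi-likelihood test with group as its only term over all 6 libraries, two-sided, Benjamini-Hochberg adjusted over all genes tested at 0.05. SE was the absolute log2 fold divided by the square root of F. The spread between libraries was shared by the 3 groups. Steps were tested on simulated data.

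Positions and biotypes came from RefSeq on GRCm38, which matched all 37 symbols; promoter sequences are RefSeq's, and a member without an entry is named only. The members, lists and tests were chosen with earlier results of these data known. Members given in every library were the 8 with the smallest and the 3 with the largest p over IgG at a mean of at least 10 CPM (counts per 1000000 with TMM scaling), any member lower in CPEB4 RIP, and Rps6, Rps27a, Fau, Rpsa and the paralogs; Rps3, Rps10 and Rps20 were added after their values were seen. In the pathway lists the smallest and largest p, Rack1, Eef1a1, Pabpc1 and Larp1 were to be named, and Eif3h, Eef1b2, Nop56, Wdr43 and Rps6kb1 were added; not every gene of the rule is printed. A few genes are not reported here by name and are not drawn, but count in all totals. Alternatives were DESeq2 (1.42.0), limma (3.58.1) on log2 FPKM with pseudocounts of 1 and 0.1, other scalings and filters, a replicate term, a length offset (loess, span 0.3), pseudogene counts added, and each library left out.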

Additional observations from a re-analysis of the deposited data

How the results depend on the processing

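Across 13 alternatives and 6 fits that each left out 1 library, 0 members were lower in any of the 3 comparisons, and the list medians kept their sign. Counts of members higher over IgG stayed within 1.5 times of 30 except with the length offset, at 0 (median 0.80), and without CPEB4 RIP replicate 2, at 0; leaving out libraries gave 0 to 35 members and medians of 1.05 to 1.37. Over input the range was 17 (without CPEB4 RIP replicate 2) to 34 members and medians of 1.501 to 1.69, and for IgG RIP over input it was 0 to 13 members and medians of 0.21 to 0.51. The median over input was 1.31 with library size alone, which moved the median of all genes to -0.27, 1.63 with no low-count filter, and 1.37 with a mean count of at least 20. Members higher in IgG RIP than input numbered 14 with DESeq2's Wald test and 1 with no filter. The members' share was 2.51% in CPEB4 RIP without mitochondrial genome counts, and 2.48% after CPEB4 RIP and 1.24% after IgG RIP with pseudogene rows added. Rps4l turned positive over IgG in 3 fits, at 0.014 with limma on log2(FPKM + 0.1), 0.06 without CPEB4 RIP replicate 1 and 0.72 without IgG RIP replicate 1; its range with libraries left out was -0.53 to 0.72. Fau passed over IgG in 5 of the 19 settings and Rps6 in 1. Same-numbered libraries did not deviate together in all pairs of groups (correlations of 0.13, -0.02 and 0.07). With 2 libraries a group these correlations cannot show whether equal numbers share a preparation, and no label says so. A replicate block gave 31 members higher over IgG (5.9% of all genes were) and 33 over input (9.16%). The causes of these differences were not tested.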
